A study of Mus musculus with 4 samples.

Results

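The untransduced female mouse neural stem cells described here were the control libraries of an RNA sequencing series, 2 of its 4 libraries. The members were the 2 count columns of all aligned reads that the column names mark as Flox. The labels give these cells the genotype Smchd1 del/fl, with 1 deleted and 1 floxed allele of Smchd1, and a mixed C57BL/6, 129 and Castaneus background. On the maternal X, of 129 origin, Xist was mutant (named deltaA in the protocol and 129-KO in the genotype label), and the paternal X was Castaneus. The lines were made from embryos at embryonic stage E14.5, and these libraries came from the portion of each line that never received the Cre retrovirus or puromycin. The column names carry different numbers, read here as line numbers, so the libraries are called line A and line B. No comparison with the Cre-transduced cells was made. The design text speaks of 3 lines per genotype, and further lines were not analysed here. With 1 library per line, every value below is given for line A and then line B, and the distance between them is the spread between 2 lines with no replicate within a line. No test was run.

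Neural stem cells line the ventricles of the embryonic brain as radial glia, divide, and give rise to neurons and later to astrocytes and oligodendrocytes. In culture they are kept dividing by epidermal and fibroblast growth factors, and they carry intermediate filament proteins, SOX transcription factors and Notch signalling genes as their usual markers. Smchd1, the gene altered in this series, encodes a chromatin protein that maintains silencing on the inactive X chromosome.

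Line A held 29873400 counts and line B 34018500. Levels of 1 gene across the lines were compared as CPM (counts per 1000000 counts of the library). Levels of different genes were compared as RPKM, the CPM divided by the kilobases of exon. A gene was called expressed at 1 RPKM or more in both lines. Of 24494 genes with a known length, 17280 had at least 1 count and 11409 (46.6%) were expressed. A count of 0 allows up to 3 counts, which is 0.1004 CPM in line A and 0.0882 CPM in line B and covers counting error only. All 13 mitochondrial protein genes were listed at 0 in both libraries. Their levels are treated here as not measured, and these zeros are not read as absence of the RNA. All 8 genes of a list on the Y chromosome, such as Ddx3y and Kdm5d, had 0 counts in these libraries labelled female. Over the whole Y chromosome 4 of 378 entries had counts, 243 in line A and 198 in line B in all. The level of a gene whose coding sequence is repeated elsewhere in the genome is uncertain, as the values for such genes below show.

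The promoters of 3 of the 4 marker genes and of 2 silent genes are shown because the CpG content of promoters differed between expressed and silent genes, as described further on. Each is the RefSeq promoter of build GRCm38.p6, from 250 bases before to 50 bases after the annotated start, 5′ to 3′ on the gene's strand, with every CG in capitals. Vim lies at chr2:13574061-13574360 on the plus strand, Fabp7 at chr10:57784673-57784972 plus, Sox2 at chr3:34649745-34650044 plus, Hoxb8 at chr11:96281655-96281954 plus and the olfactory receptor gene Olfr1 at chr11:73399446-73399745 minus.
Vim: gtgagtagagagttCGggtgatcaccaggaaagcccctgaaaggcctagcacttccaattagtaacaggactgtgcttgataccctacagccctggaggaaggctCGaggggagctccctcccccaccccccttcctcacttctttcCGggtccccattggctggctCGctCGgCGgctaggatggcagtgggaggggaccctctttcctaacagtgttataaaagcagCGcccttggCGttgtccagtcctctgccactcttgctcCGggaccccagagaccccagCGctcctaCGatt
Fabp7: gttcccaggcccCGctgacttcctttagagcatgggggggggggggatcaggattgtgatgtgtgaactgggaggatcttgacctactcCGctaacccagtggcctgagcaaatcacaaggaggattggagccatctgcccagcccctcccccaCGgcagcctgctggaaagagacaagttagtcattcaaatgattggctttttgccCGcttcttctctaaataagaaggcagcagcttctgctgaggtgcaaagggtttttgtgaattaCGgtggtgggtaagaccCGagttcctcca
Sox2: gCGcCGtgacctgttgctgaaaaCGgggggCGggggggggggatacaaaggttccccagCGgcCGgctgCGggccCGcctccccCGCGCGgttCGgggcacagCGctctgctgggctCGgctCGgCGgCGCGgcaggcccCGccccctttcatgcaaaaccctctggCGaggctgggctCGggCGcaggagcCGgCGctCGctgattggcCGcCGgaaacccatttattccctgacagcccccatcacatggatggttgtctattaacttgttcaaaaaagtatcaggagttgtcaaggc
Hoxb8: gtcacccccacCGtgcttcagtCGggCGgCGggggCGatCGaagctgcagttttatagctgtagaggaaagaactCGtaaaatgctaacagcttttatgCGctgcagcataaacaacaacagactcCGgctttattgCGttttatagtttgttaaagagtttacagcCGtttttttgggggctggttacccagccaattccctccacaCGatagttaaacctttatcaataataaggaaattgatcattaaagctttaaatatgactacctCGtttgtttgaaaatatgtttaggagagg
Olfr1: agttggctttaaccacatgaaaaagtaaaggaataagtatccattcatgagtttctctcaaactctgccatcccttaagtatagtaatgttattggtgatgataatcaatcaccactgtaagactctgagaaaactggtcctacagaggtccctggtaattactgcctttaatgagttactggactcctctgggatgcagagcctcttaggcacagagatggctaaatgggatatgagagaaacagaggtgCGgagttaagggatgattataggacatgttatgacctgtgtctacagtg
The Sox2 promoter held 27 CG pairs, the Vim promoter 11 and the Fabp7 promoter 6. Hoxb8 and Olfr1 had 0 counts in both lines, and their promoters held 13 and 1.

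The 4 marker genes were among the most abundant transcripts of both lines. Fabp7, which encodes the fatty acid binding protein of radial glia (chr10:57784881-57788450 in mm10), had 35802 and 60022 counts, 1198 and 1764 CPM and 959 and 1412 RPKM. It ranked 5 of the genes with counts by RPKM over both lines. Vim (chr2:13573927-13582826), the intermediate filament vimentin, had 130560 and 114701 counts, 4370.4 and 3372 CPM and 921 and 711 RPKM, rank 15. Nes (chr3:87971078-87980451), the intermediate filament nestin, had 49410 and 46168 counts, 1654 and 1357 CPM and 258 and 212 RPKM, rank 82. Sox2 (chr3:34650005-34652461), a transcription factor of neural progenitors, had 7843 and 10507 counts, 263 and 309 CPM and 128 and 150.2 RPKM, rank 197. Fabp7 and Sox2 were higher in line B and Vim and Nes in line A, by at most 1.47-fold on CPM. By CPM, which favours long transcripts, Vim ranked 4, Nes 23, Fabp7 26 and Sox2 587.

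All 20 genes of the neural stem cell list were expressed, with medians of 32.1 and 33.2 RPKM against a median of 0.657 over all 24494 genes. Behind Fabp7, Vim and Nes came Slc1a3, the glutamate transporter of radial glia and astrocytes, at 139.7 and 162 RPKM, and Ptprz1, a receptor phosphatase of glial progenitors, at 103 and 145 RPKM. The SOX factors Sox3 (48.5 and 37.7 RPKM), Sox9 (32.4 and 33.1 RPKM) and Sox1 (13.8 and 7.70 RPKM) were lower than Sox2. The RNA-binding protein gene Msi2 (28.4 and 33.4 RPKM) exceeded Msi1 (9.18 and 9.72 RPKM). The lowest 2 of the list were Pax6, a transcription factor of dorsal radial glia, at 3.97 and 3.98 RPKM and Prom1, the surface protein CD133, at 1.46 and 2.07 RPKM. None of the 20 differed by 2-fold between the lines, where 4.92% of all 13040 genes with a mean of at least 1 CPM did.

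Markers of other brain cells were mixed. In these bulk libraries a few cells with much of an RNA and many cells with little of it cannot be told apart. Of 12 astrocyte genes 9 were expressed, with medians of 11.0 and 10.6 RPKM. Apoe, the lipid carrier, led at 132 and 92.8 RPKM, before the glutamine synthetase gene Glul at 46.3 and 53.5 RPKM and the aldolase gene Aldoc at 39.6 and 44.2 RPKM. The genes of mature astrocytes were lower: Gfap, the astrocyte intermediate filament, had 3.29 and 4.65 RPKM and Aqp4, the water channel, 0.929 and 1.25 RPKM. The connexin gene Gjb6 had 0 counts.

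Of 15 oligodendrocyte lineage genes 5 were expressed, and 2 of them were among the highest genes of all. Olig1 and Olig2 encode transcription factors that specify the lineage. Olig1 had 858 and 731 RPKM and Olig2 368 and 313 RPKM. Cnp, a myelin enzyme, had 20.03 and 21.9 RPKM, and Nkx2-2, another transcription factor of the lineage, 9.43 and 6.45 RPKM. Pdgfra, the growth factor receptor of oligodendrocyte precursors, had 0.932 and 4.75 RPKM, and Sox10, the factor that carries the lineage on, 0.340 and 2.02 RPKM. The myelin genes were near or at 0: Mbp had 16 and 13 counts, Mog 2 and 2 and Mag 0 in both lines.

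Of 19 listed neuronal genes 6 were expressed, with medians of 0.219 and 0.372 RPKM. Syt1, a synaptic vesicle calcium sensor, had the highest level at 20.3 and 8.65 RPKM, followed by the RNA-binding protein gene Elavl4 at 6.74 and 7.43 RPKM. Tubb3, the neuronal tubulin, had 2.38 and 2.22 RPKM. Genes of young and mature neurons were lower: Dcx, the doublecortin of migrating neurons, had 37 and 168 counts, Rbfox3, the nuclear antigen NeuN, 38 and 14 and the cortical factor Tbr1 7 and 12.

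Most listed markers of microglial, endothelial, mesenchymal and mural, and ependymal cells were not expressed. Of 12 microglial genes 8 had 0 counts in both lines (Aif1, Cx3cr1, Itgam, Tmem119, Tyrobp, C1qa, C1qb and C1qc). The 2 expressed were Cd68, a lysosomal protein, at 5.70 and 3.32 RPKM and Csf1r at 1.51 and 1.55 RPKM. None of 10 endothelial genes was expressed, the highest count being that of Kdr at 41 and 58, and Cdh5 and Tie1 had 0. Of 11 mesenchymal and mural genes the actin-binding genes Acta2 (11.4 and 6.28 RPKM) and Tagln (6.08 and 2.87 RPKM) were expressed, while Lum and Dcn had 0 counts and Col1a1 37 and 54. Of 6 ependymal genes Foxj1, the factor that switches on motile cilia, was expressed at 32.3 and 25.2 RPKM, while the cilia gene Rsph1 had 26 and 23 counts and Hydin 22 and 30 counts.

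Among 12 pluripotency genes, Pou5f1, Zfp42, Dppa3, Dppa5a, Tdgf1, Lin28a and Sall4 had 0 counts in both lines and Nanog 12 and 7. Klf4 (2.62 and 2.71 RPKM) and Klf2 (1.03 and 1.45 RPKM), which many cell types also use, were the 2 expressed. None of 19 genes of other tissues, such as Alb of liver and Ins2 of pancreas, was expressed, and 11 had 0 counts.

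**Figure D1:**
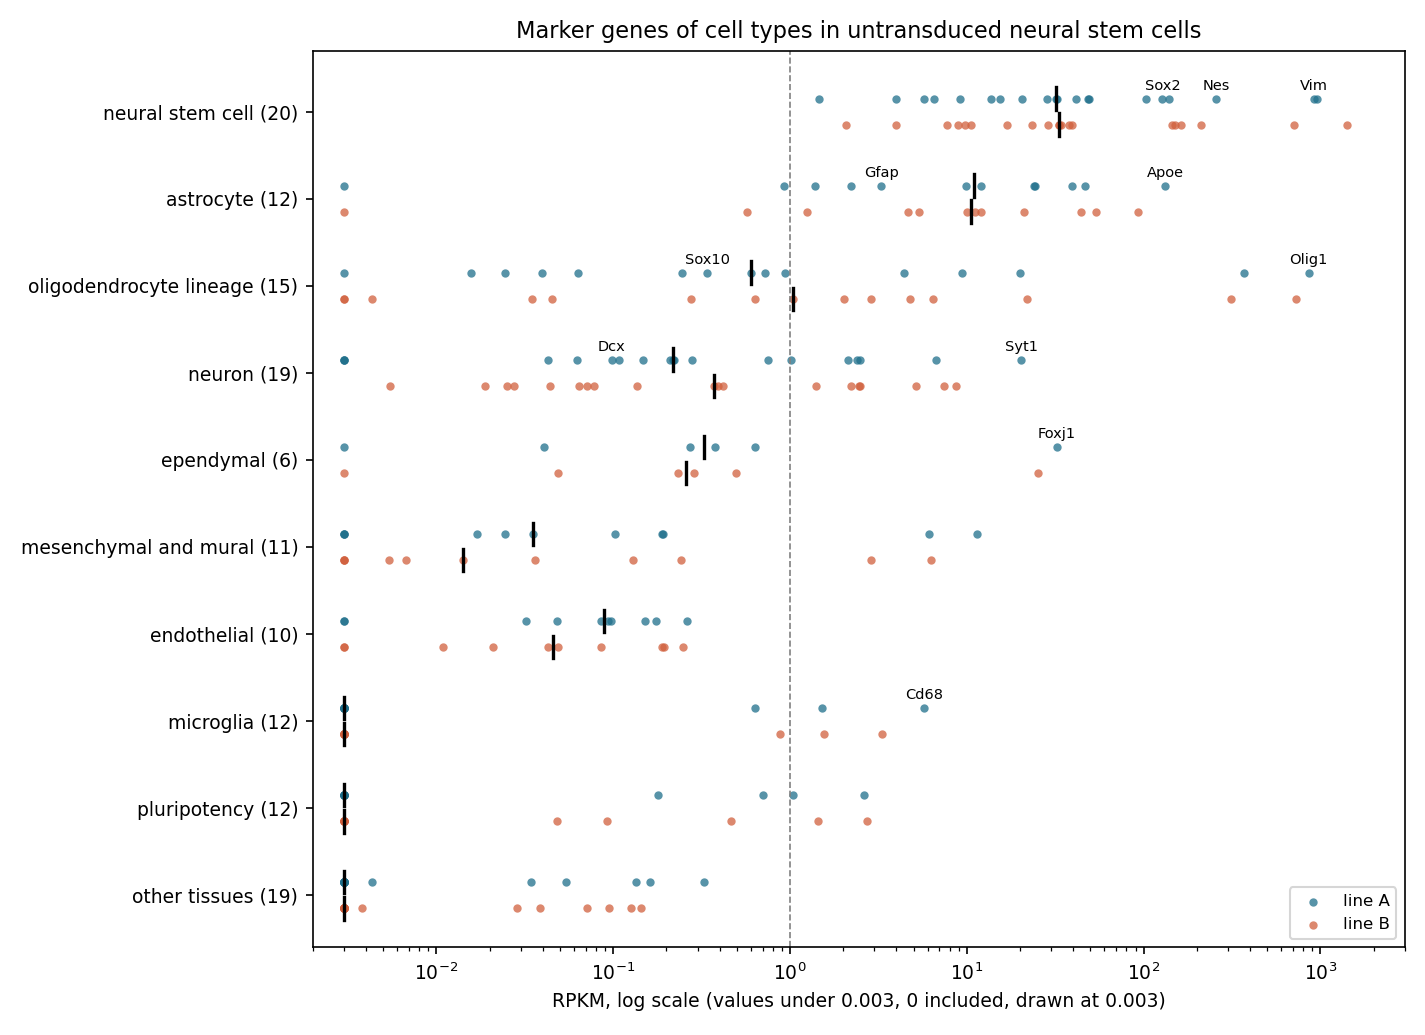
RPKM on a log axis of every gene in 10 marker lists, with line A above line B in each list, the number of genes in brackets, black bars at the list median and a dashed line at 1 RPKM. All 20 neural stem cell genes lie to the right of the dashed line, and the microglial, pluripotency and other tissue lists have medians of 0.

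Regional transcription factors were mainly those of the forebrain, and few of its ventral domains. Of 10 genes of the dorsal telencephalon 5 were expressed, among them Lhx2 at 17.5 and 13.5 RPKM, Emx2 at 12.7 and 14.2 RPKM, Otx1 at 5.001 and 5.33 RPKM and Pax6. Emx1 and Neurog1 had 0 counts. Of 11 ventral genes 2 were expressed, Olig2 among them. The factors that define ventral domains were near 0, with 2 and 10 counts of Gsx2, 6 and 7 of Dlx2 and 0 and 3 of Nkx2-1.

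Behind the forebrain, 1 of 8 midbrain and hindbrain genes was expressed, Gbx2, at 12.5 and 4.66 RPKM. En2 had 44 and 85 counts, and Otx2 and Pax2 0 and 4 counts each. The Hox genes, which mark hindbrain and spinal levels, were silent: none of 39 was expressed, line A had 0 Hox counts, and line B had 30 spread over 17 genes, with at most 4 in any of them. The SOX family gave a different picture, with 12 of 19 members expressed. Besides those named, Sox4 (88.1 and 80.9 RPKM), Sox8 (43.96 and 42.5 RPKM) and Sox21 (29.8 and 35.98 RPKM) were high, and Sox14 had 0 counts.

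Cell division genes were expressed almost throughout their list. Of 30 cyclins, kinases and S to M phase genes 29 were expressed, with medians of 23.0 and 21.9 RPKM. Ccnd1, cyclin D1, which drives entry into S phase, was at 919.7 and 763 RPKM and rank 14, and Ccnd2 at 381 and 363 RPKM, while Ccnd3 had 9.79 and 8.72 RPKM. Their partner kinases also differed in level: Cdk4 had 152 and 143 RPKM and Cdk6 0.316 and 0.204 RPKM, the lowest of the list. The replication genes Rrm2 (74.2 and 55.7 RPKM) and Mcm4 (41.3 and 42.2 RPKM), the mitotic cyclin Ccna2 (44.4 and 40.1 RPKM), Top2a (40.6 and 39.4 RPKM) and Mki67 (35.3 and 35.5 RPKM) all lay above the medians of the list. None of the 30 differed by 2-fold between the lines, where 4.92% of all 13040 genes with a mean of at least 1 CPM did. At a mean of at least 10 CPM the share was 1.95%. With shares this low, 0 calls do not set a list of this size apart.

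The inhibitors of these kinases were expressed alongside them. Cdkn1a, p21, was at 194 and 147 RPKM, Cdkn2a at 75.7 and 48.3 RPKM, Cdkn2b at 45.8 and 50.5 RPKM and Cdkn1b, p27, at 26.3 and 31.3 RPKM. Cdkn2c (21.4 and 19.4 RPKM) and Cdkn2d (20.8 and 17.6 RPKM) followed. Cdkn1c, p57, an imprinted gene, was lowest at 0.952 and 2.13 RPKM, so 6 of 7 were expressed in both lines.

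Of 18 growth factor receptor genes 9 were expressed. Egfr, the receptor for epidermal growth factor, led at 41.4 and 39.4 RPKM, before the fibroblast growth factor receptor Fgfr1 at 26.5 and 27.5 RPKM, the neurotrophin receptor Ntrk2 at 16.3 and 12.5 RPKM and Fgfr3 at 9.93 and 12.04 RPKM. Insr (8.65 and 12.4 RPKM) and Erbb2 (6.44 and 6.50 RPKM) came next. Pdgfrb, a receptor gene of mural cells, had 4 and 1 counts. The growth medium is not given in the sources used here.

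Of 19 Notch pathway genes 14 were expressed. Among receptors, Notch1 had 49.03 and 34.3 RPKM and Notch3 24.1 and 14.1 RPKM. Among ligands, Jag1 had 15.3 and 15.6 RPKM and Dll1 12.4 and 11.98 RPKM. Hes6, which opposes Hes1, was at 71.5 and 71.9 RPKM. Among the repressor targets, Hey1 was at 21.3 and 21.3 RPKM, Hes1 at 15.4 and 16.9 RPKM and Hes5 at 5.75 and 10.6 RPKM. Hes5 shares 47.0% of its coding words of 50 bases with another annotated gene, so its level is uncertain. The vascular member Notch4 had 40 and 39 counts and Dll4 7 and 23 counts.

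Of 24 Wnt pathway genes 21 were expressed. The transducer Ctnnb1, beta-catenin, was at 212 and 227 RPKM, and Apc, of the complex that degrades it, at 48.2 and 50.7 RPKM. The receptors Fzd1 (43.3 and 28.7 RPKM) and Fzd9 (27.3 and 22.9 RPKM) and the ligands Wnt7b (25.1 and 14.9 RPKM) and Wnt7a (14.8 and 17.1 RPKM) were high. The target gene Axin2 had 10.9 and 13.4 RPKM, whereas Lef1 had 9 and 21 counts and Lgr5 18 and 27 counts.

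Of 18 genes of the BMP (bone morphogenetic protein) pathway 10 were expressed. The targets Id3 (93.2 and 90.99 RPKM), Id1 (33.9 and 33.9 RPKM) and Id2 (22.5 and 30.2 RPKM), the receptor Bmpr1a (39.1 and 44.8 RPKM) and the signal transducers Smad5 (30.3 and 31.4 RPKM) and Smad4 (28.3 and 29.1 RPKM) led. Id4 stood apart from its relatives at 0.809 and 0.680 RPKM. Among ligands Bmp7 had 19.7 and 23.8 RPKM and Bmp4 0 counts.

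Of 12 hedgehog pathway genes 8 were expressed. The co-receptor Gas1 (27.04 and 30.1 RPKM) and the transducer Smo (27.8 and 26.6 RPKM) led, before Cdon (11.2 and 6.22 RPKM), Sufu (8.19 and 8.20 RPKM) and the receptor Ptch1 (7.75 and 6.06 RPKM). The factors Gli3 (3.31 and 3.43 RPKM) and Gli2 (2.31 and 2.60 RPKM) were expressed. Of the pathway's readout genes, Gli1 had 14 and 11 counts and Hhip 197 and 73 counts. Ptch1, also a readout gene, had 3284 and 2926 counts. The ligand gene Shh had 240 and 81 counts, 2.82 and 0.836 RPKM.

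**Figure D2:**
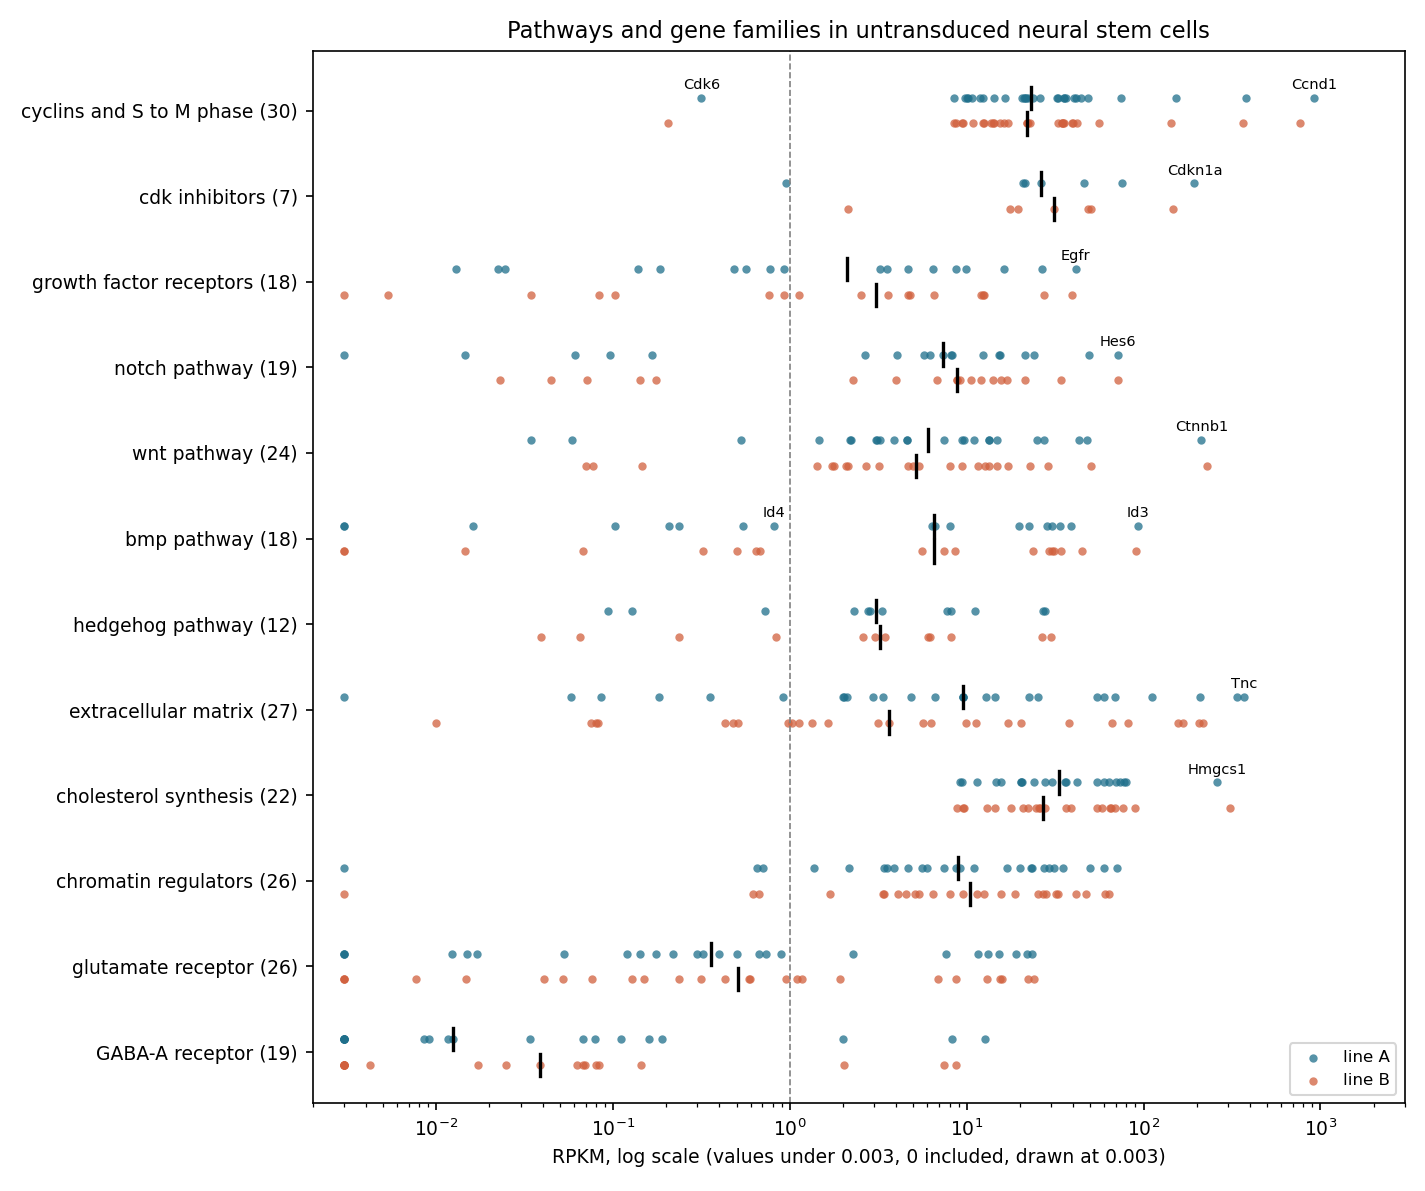
RPKM on a log axis of every gene in 12 pathway lists and families, with line A above line B, the number of genes in brackets, black bars at the median and a dashed line at 1 RPKM. Cholesterol synthesis genes all lie above 1 RPKM, 29 of 30 cell cycle genes do, and GABA-A receptor genes lie mostly below it.

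Genes of the extracellular matrix and of secreted factors also reached high levels. Of 27 matrix genes 19 were expressed, with medians of 9.47 RPKM in line A and 3.65 RPKM in line B. Sparc, a matrix glycoprotein, had 338 and 217 RPKM, Tnc, the tenascin of the stem cell niche, 369.5 and 157 RPKM, the growth factor Ptn 209 and 206 RPKM and the proteoglycan Ncan 112 and 167 RPKM. Sparcl1 (54.9 and 81.2 RPKM) and the proteoglycan Bcan (68.7 and 66.4 RPKM) followed. Secreted binding proteins of insulin-like growth factors ranked higher still, with Igfbp2 at 1154 and 776 RPKM (rank 10) and Igfbp3 at 860.4 and 455 RPKM (rank 20).

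Lipid synthesis genes reached high levels. Scd2, the fatty acid desaturase of brain, had more counts than any other gene over both lines, 158715 and 219274, which is 5313 and 6446 CPM and 972 and 1179.7 RPKM (rank 7). All 22 genes of cholesterol synthesis and its control were expressed, with medians of 33.3 and 26.9 RPKM. Hmgcs1, which makes the starting compound, led at 262 and 307 RPKM, before Cyp51 (79.2 and 89.8 RPKM), the regulator Insig1 (77.6 and 76.2 RPKM) and Sqle (69.9 and 64.2 RPKM).

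Ckb, brain creatine kinase, had 1739 and 1006 RPKM and rank 2. Of 80 nuclear genes of oxidative phosphorylation 74 were expressed, with medians of 51.8 and 53.1 RPKM, and the ATP synthase subunits Atp5b (508 and 489.9 RPKM) and Atp5a1 (468 and 451 RPKM) led. Of 21 glycolysis genes 20 were expressed. Pkm, pyruvate kinase, had 223 and 180.2 RPKM with 53.0% of its coding words shared with other genes, Aldoa 208 and 196 RPKM, the lactate dehydrogenase Ldha 133 and 143 RPKM and Tpi1 126 and 101 RPKM. Gapdh, a gene often used as a high constant reference, had 217 and 204 counts and 1.76 and 1.45 RPKM. Of the 50-base words in its coding sequence, 94.2% occurred in other annotated genes, 222 genes in all and 214 of them pseudogenes.

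Chromatin genes were expressed at moderate levels, 23 of 26. The remodelling ATPase Smarca4 had 70.5 and 64.1 RPKM, the deacetylase Hdac2 59.9 and 60.2 RPKM, the X-linked demethylase Kdm5c 49.6 and 47.2 RPKM and the Polycomb gene Bmi1 35.1 and 41.7 RPKM. The maintenance methyltransferase Dnmt1 (31.3 and 31.9 RPKM) exceeded Dnmt3a (8.72 and 9.56 RPKM) and Dnmt3b (0.649 and 0.674 RPKM), and Dnmt3l had 0 counts. Smchd1 itself (chr17:71344489-71475343) had 2779 and 3461 counts and 93.03 and 102 CPM. Its 4.66 and 5.09 RPKM rests on a union exon length of 19982 bases, while its longest annotated transcript has 7052.

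Of 11 genes of X inactivation 10 were expressed. The noncoding RNA Xist, which spreads along the chromosome to be silenced, had 53514 and 75662 counts and 99.8 and 124 RPKM, and Tsix, its antisense partner, 28.3 and 32.2 RPKM. Whether counting used strand is not given in the sources used here, so reads of Xist and Tsix cannot be told apart. The Xist-binding protein genes Hnrnpu (88.04 and 108 RPKM) and Hnrnpk (64.9 and 72.9 RPKM) were high, and Spen, the silencing factor that Xist recruits, had 11.1 and 10.4 RPKM. Among other noncoding RNAs, Malat1 had 200.2 and 139 RPKM and Gas5 24.6 and 42.4 RPKM, and Neat1 84 and 130 counts. Of 1075 long intergenic noncoding RNA genes 48 were expressed.

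Of 23 imprinted genes measured 17 were expressed. Mest (424 and 349 RPKM), Gnas (127 and 125 RPKM), Nnat (97.8 and 61.2 RPKM) and Peg10 (95.3 and 54.9 RPKM) led the list. The level of Gnas is uncertain, since 83.4% of the coding words of Gm20721 (rank 13, 919 and 913 RPKM) are also in Gnas. Igf2, the fetal growth factor, had 26 and 10 counts, while H19 beside it had 6.44 and 5.16 RPKM. The adaptor gene Grb10, a brake on growth signalling, had 4.13 and 11.98 RPKM. Phlda2 had 0 counts.

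Response genes of the cultures were not uniform. Of 19 immediate early and stress genes 16 were expressed. The chaperone Hsp90ab1 had 1045 and 1055 RPKM (rank 8), Hsp90b1 201 and 172 RPKM and Hspa5, of the endoplasmic reticulum, 189 and 155 RPKM. The immediate early genes Jun (73.95 and 78.7 RPKM), Egr1 (62.9 and 79.9 RPKM) and Fos (36.1 and 36.3 RPKM) were present, and the heat-inducible Hspa1a had 58 and 34 counts. Of 12 interferon-stimulated genes 2 were expressed, Bst2 at 17.6 and 4.23 RPKM among them, and Mx1 had 4 and 0 counts.

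Large families of sensory and surface tissues were silent. None of 1082 olfactory receptor genes was expressed, 30 had any count, and together they held 264 and 258 counts. None of 316 vomeronasal receptor genes was expressed, and 8 had counts. Of 46 keratin genes 1 was expressed, Krt10, at 3.40 and 4.09 RPKM, and 39 had 0 counts, Krt18 and Krt5 among them. A separate case were the replication-dependent histone genes, of which 8 of 68 were expressed, led by the linker histone gene Hist1h1c at 26.3 and 10.6 RPKM. How RNA was selected for sequencing was not examined here, so the low histone counts are not read as silence.

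Receptors and channels were expressed by a few members of each family. Of 26 glutamate receptor genes 8 were expressed, Grm5 (23.3 and 23.9 RPKM), Grik5 (21.8 and 22.2 RPKM), Gria3 (18.9 and 15.4 RPKM), Gria2 (15.2 and 15.9 RPKM), Gria4 (13.1 and 13.04 RPKM), Grin3a (7.68 and 6.90 RPKM), Gria1 (11.6 and 1.92 RPKM) and Grm3 (2.28 and 8.66 RPKM). Grin3a is an NMDA receptor subunit gene and had 2816 and 2882 counts. Of the other NMDA receptor subunit genes, used by mature neurons, Grin1 had 212 and 197 counts and Grin2b 39 and 64 counts. Of 19 GABA-A receptor genes 3 were expressed, Gabrg1 (8.24 and 7.41 RPKM) and Gabra2 (2.002 and 2.02 RPKM) among them.

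Counts were spread over many genes. The 10 genes with the most counts held 3.61% and 3.34% of all counts, the top 100 held 13.7% and 13.1%, and the top 1000 held 43.2% and 42.8%. By RPKM, 343 genes (1.40%) stood at a mean of 100 or more and held 20.7% and 19.98% of counts, and 5219 genes between 10 and 100 held 61.2% and 61.7%. The top rank belonged to Eef1a1, the elongation factor that brings transfer RNA to the ribosome, at 1428 and 1489 RPKM, with 72.7% of its coding words of 50 bases shared with other genes. Lgals1, a galectin, ranked 3 at 1377 and 1077 RPKM, and Tmsb4x, an actin-binding peptide gene, rank 12 at 1007 and 871 RPKM. Of 20785 protein-coding genes 10712 (51.5%) were expressed.

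Near-identical copies of housekeeping genes took an unusual place in these ranks. Of the 100 genes highest by RPKM 17 were annotated pseudogenes, and of the top 10, 2 were, Gm6180 (rank 4, 1137 and 1235 RPKM) and Gm9843 (rank 9, 827 and 1187 RPKM). Of the 17, 14 had at least 60% of their 50-base words in 1 other gene, 7 had all of them there, and 16 had more counts than that gene in both lines. Expressed processed pseudogenes, which are reverse-transcribed copies of messenger RNA, had a median of 23.2 RPKM, against 9.88 for expressed protein-coding genes. The pairs below show how alike such copies are, with 90 bases of GENCODE coding sequence from the parent gene and the matching stretch of the copy. Fau, which encodes a ribosomal protein fusion, is shown from its coding base 1, and Cfl1, the actin-severing cofilin, from its coding base 97, with the bases that differ in capitals.
Fau: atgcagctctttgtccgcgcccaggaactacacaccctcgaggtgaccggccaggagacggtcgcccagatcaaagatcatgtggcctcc
Gm9843: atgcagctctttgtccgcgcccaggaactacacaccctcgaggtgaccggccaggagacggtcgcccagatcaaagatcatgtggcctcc
Cfl1: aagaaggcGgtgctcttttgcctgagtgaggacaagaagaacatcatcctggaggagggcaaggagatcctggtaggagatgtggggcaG
Gm6180: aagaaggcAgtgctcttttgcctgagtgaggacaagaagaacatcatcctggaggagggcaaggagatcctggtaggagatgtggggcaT
The Fau and Gm9843 sequences were identical over all 402 coding bases, and Fau (chr19:6057888-6059524) had 196 and 778 counts while the pseudogene (chr16:76403209-76403712) had 9935 and 16226. The Cfl1 (chr19:5490485-5494029) and Gm6180 (chr8:42246911-42247411) sequences were 98.8% identical over 498 bases with 6 differences, 2 of them shown. Cfl1 had 23669 and 27664 counts and Gm6180 16911 and 20924 counts. Ppia, cyclophilin A, had 274 and 386 counts against 13713 and 16243 on Gm10123, identical over 490 bases. Rps27, a ribosomal protein gene, had 9 and 15 counts against 5208 and 6441 on Gm9846, identical over 255 bases. How reads that fit several places were counted is not given in the sources used here, so the separate levels of these pairs are uncertain.

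The ribosomal protein genes showed the same division by sequence. Of 87 genes 82 were expressed, with medians of 21.0 and 23.2 RPKM, and together they held 0.887% and 0.940% of counts. Rplp1 (618 and 613 RPKM), Rpl8 (551 and 592 RPKM), Rpl4 (447 and 502 RPKM), Rpl32 (292 and 325 RPKM) and Rps15 (305 and 301 RPKM) were among the highest. The 6 genes with under 10% of coding words shared with other genes had medians of 196 and 193 RPKM. The 37 with 10% to 90% shared had 38.2 and 34.1 RPKM, and the 43 with at least 90% shared had 14.7 and 14.9 RPKM. The remaining entry, Rps4y2, is annotated as a pseudogene and was in none of these classes. Across all 87 entries, which are not independent replicates, Spearman's rho between the shared part and the mean RPKM was -0.41. This order did not hold in every list. In line A the 3 classes had medians of 72.0, 33.5 and 1.86 RPKM among oxidative phosphorylation genes. Glycolysis genes had 13.1, 126 and 18.1 RPKM, highest in the middle class. The 3 lowest genes, Rpl3l, Rpl10l and Rpl39l, are variants known from muscle or testis and had at most 1 count in a line.

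**Figure D3:**
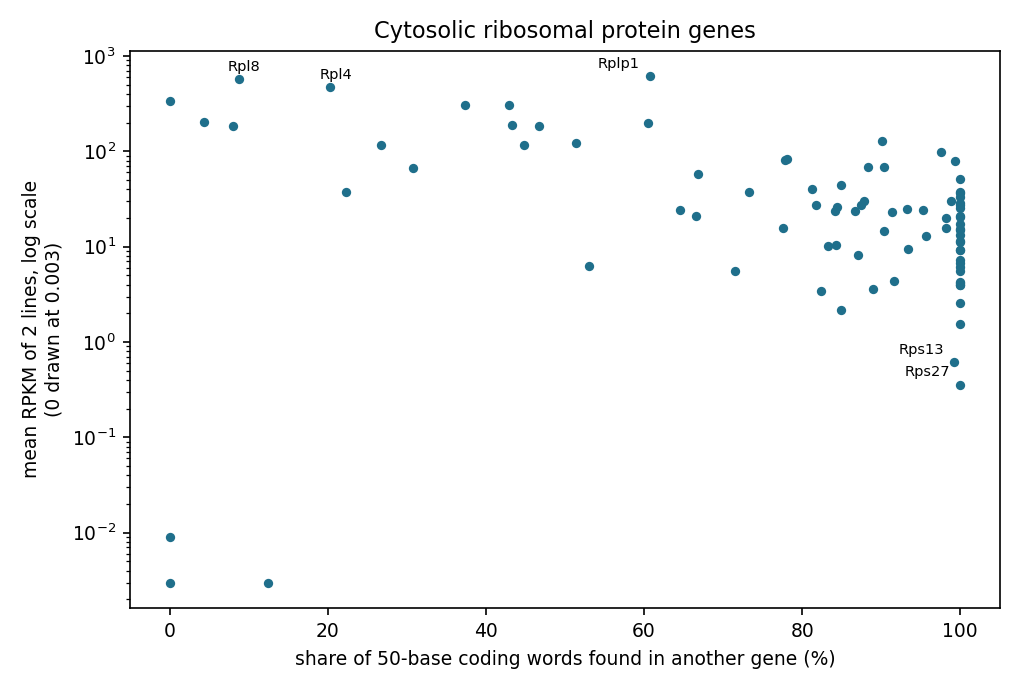
Mean RPKM of the 2 lines on a log axis for each cytosolic ribosomal protein gene, against the percentage of its 50-base coding words that also occur in another gene. Genes with under 10% shared have a median near 196 RPKM in line A and those with at least 90% shared a median near 14.7, and the points at the lower left are Rpl3l, Rpl10l and Rpl39l.

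CpG-rich promoters were more common among expressed genes. The measure was the ratio of CG pairs observed to those predicted from base composition, and a promoter at 0.6 or above is called CpG-rich here. RefSeq promoters were matched to 16045 of 20785 protein-coding genes, and 51.1% of these were CpG-rich. Of promoters of the 8546 genes expressed in both lines 79.1% were CpG-rich, against 19.1% of the other 7499. By level the share rose from 6.03% of genes with no counts through 24.8% under 0.1 RPKM, 43.5% from 0.1 to 1 and 73.8% from 1 to 10 to 83.6% from 10 to 100. It was 82.7% at 100 RPKM and above, where the printed markers fell on both sides: Sox2 had a ratio of 0.82, Vim 0.42 and Fabp7 0.28. Silent families differed in this measure. Of 22 Hox promoters 45.5% were CpG-rich, with a median ratio of 0.594. Of 916 olfactory receptor promoters 0.546% were, with a median ratio of 0.106. The printed Hoxb8 was chosen for the highest ratio among the Hox genes with no counts, 0.97. Olfr1, with a ratio of 0.080, was chosen at the median number of CG pairs of olfactory receptor genes with no counts. In all, 246 of 4078 promoters of genes with no counts were CpG-rich.

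The TATA motif, searched as TATAAA on both strands anywhere in the 300 bases, had the opposite course over most levels. It occurred in 28.0% of promoters of genes with no counts, 13.9% under 0.1 RPKM, 9.16% from 0.1 to 1, 5.84% from 1 to 10 and 5.75% from 10 to 100, and then in 13.5% of the 237 promoters at 100 RPKM and above. Over all 16045 promoters it occurred in 12.7%, and the Vim and Hoxb8 promoters printed above hold it. The motif holds only A and T. Median GC content rose from 45.3% for genes with no counts to 62% from 10 to 100 RPKM, and was 62% at 100 and above. The part of base composition in the course of the motif was not tested. Ribosomal protein promoters were set apart by the letters at the start site. A run of at least 8 C or T bases within 15 bases of the start occurred in 40.0% of 65 ribosomal protein promoters and in 11.7% of all. The Rpl4 start (chr9:64173367-64173406, plus strand) is shown as an example, with the 11 bases of its run inside that window in capitals. The run extends into the lower-case C and T bases just before them.
Rpl4: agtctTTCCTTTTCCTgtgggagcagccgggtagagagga
A match to such letters is a description of the window and does not show that a factor binds there.

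**Figure D4:**
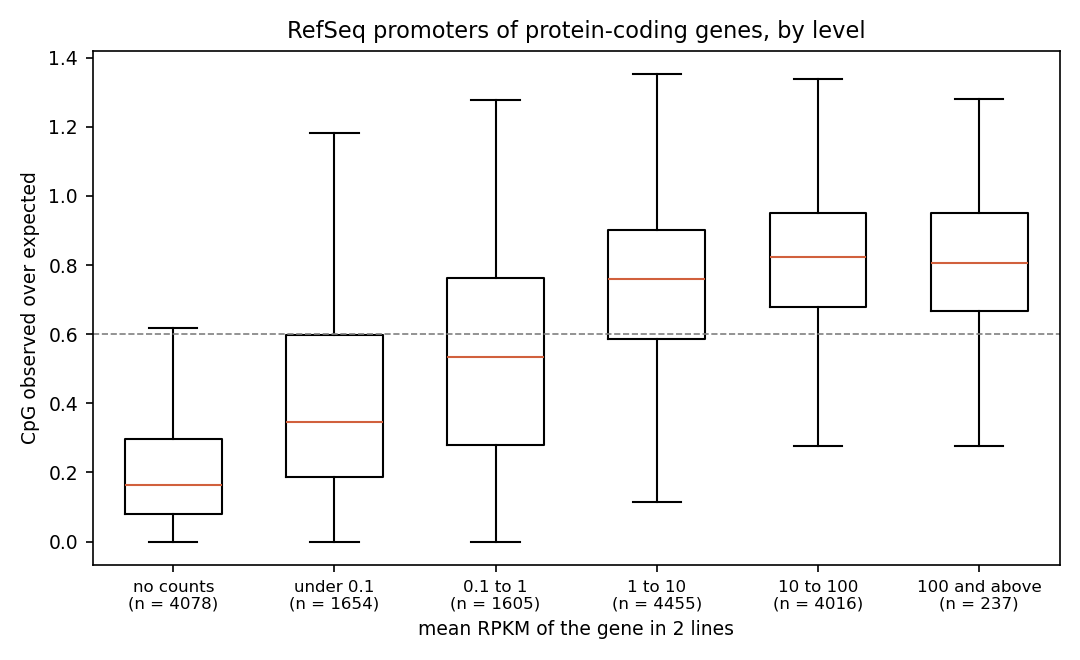
CpG observed over expected in RefSeq promoters of protein-coding genes, by the mean RPKM of the gene. Boxes span the quartiles with the median in red, whiskers reach to the last value within 1.5 times the box height, outliers are not drawn, and the dashed line is the threshold of 0.6. The median is 0.16 for genes with no counts and 0.82 for those from 10 to 100 RPKM.

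The 2 lines were alike for most genes. Of 13040 genes with a mean of at least 1 CPM, 87.9% lay within 1.5-fold, the median absolute difference was 0.18 on the log2 scale, and 642 (4.92%) were at least 2-fold apart. Of these, 462 (3.54%) were higher in line A and 180 (1.38%) higher in line B. With 1 library per line these differences have no replicate check, and line cannot be told apart from library.

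Matrix genes stood out on the side of line A. Of 23 matrix genes at 1 CPM or more 7 (Tnc, Lamb1, Col4a1, Lama4, Thbs2, Col4a2 and Lama1) were at least 2-fold higher in line A and 0 higher in line B. The shares over all genes compared were 3.54% and 1.38%. The median log2 ratio of line B to line A was -0.64 for the matrix genes against 0.02 over all genes compared. The basement membrane collagen Col4a1 had 2112 and 417 counts (5.77-fold on CPM) and its partner Col4a2 586 and 107 (6.24-fold). Tnc had 85795 and 41400 counts (2.36-fold). Of 22 collagen genes at that level 7 were 2-fold higher in line A, 0 were 2-fold higher in line B, and the median log2 ratio was -0.69. The mesenchymal list that could carry such genes held 0.00402% and 0.00220% of counts, with Lum and Dcn at 0 in both lines. Of its 3 genes at 1 CPM or more 1 was 2-fold higher in line A and 0 in line B: Tagln had 361 and 194 counts (2.12-fold), and Acta2, also higher in line A, 750 and 469 (1.82-fold). The part of such cells in the matrix difference was not tested.

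Outside the matrix list, Tmem158, a membrane protein gene, had 6533 and 1117 counts (6.66-fold higher in line A on CPM), and Cybrd1, an iron reductase gene, 4495 and 784 (6.53-fold). The AMPA receptor gene Gria1 had 2088 and 395 (6.02-fold). Ecm2, a matrix protein gene that was not in that list, had 885 and 121 (8.33-fold). Of 6 interferon-stimulated genes at 1 CPM, 3 (Bst2, Ifi35 and Irf7) were at least 2-fold higher in line A and 0 in line B. The shares over all genes compared were 3.54% and 1.38%. The list is small, and Ifi35 had only 67 and 27 counts.

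The genes named here for the widest ratios toward line B came from several groups. Gad1, which makes the transmitter GABA, had 64 and 1333 counts, 2.14 and 39.2 CPM and an 18.3-fold difference, while Gad2 had 19 and 5 counts. Pdgfra had 279 and 1620 counts (5.10-fold), Sox10 31 and 210, and Gpr17, also of the oligodendrocyte lineage, 38 and 184. Bche, butyrylcholinesterase, had 802 and 5100 counts (5.58-fold), the proto-oncogene Mycn 105 and 665 (5.56-fold) and the metabotropic glutamate receptor Grm3 208 and 898 (3.79-fold). Of 10 oligodendrocyte genes at 1 CPM or more 3 were 2-fold higher in line B and 1 in line A, and the list held 0.296% and 0.257% of counts at medians of 0.598 and 1.04 RPKM. Of 10 neuronal genes at that level 3 were 2-fold higher in line B and 2 in line A, and the list held 0.0254% and 0.0201% of counts at medians of 0.219 and 0.372 RPKM. Beside these 2 small lists, 1.38% of all genes compared were 2-fold higher in line B and 3.54% in line A. The synaptic vesicle gene Syt1 was 2.35-fold higher in line A, with 5063 and 2453 counts. Dcx had 37 and 168 counts and Stmn2, another neuronal gene, 126 and 26.

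Among 20 imprinted genes at 1 CPM or more 4 (Grb10, Dlk1, Cdkn1c and Airn) were 2-fold higher in line B and 0 in line A, where 1.38% and 3.54% of all genes compared were. Grb10 had 1122 and 3704 counts (2.90-fold). Airn, the long RNA antisense to Igf2r, had 72 and 242 counts (2.95-fold), which without strand cannot be told apart from reads of Igf2r where the genes overlap. Of 83 ribosomal protein genes at that level 6 were 2-fold higher in line B and 0 in line A, and most genes of that list share coding words with other genes.

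Several of the widest ratios belonged to pseudogenes of ribosomal protein genes. Gm16477 had 604 and 16 counts and Gm5619 770 and 24, 43.0-fold and 36.5-fold higher in line A. Of their words 93.6% and 86.2% occur in other genes, Rpl7a pseudogenes foremost. Rps13-ps1 had 23 and 1014 counts, 38.7-fold higher in line B, with 82.8% of its words in Rps13. Fau, whose coding sequence is that of Gm9843, was 3.49-fold higher in line B.

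**Figure D5:**
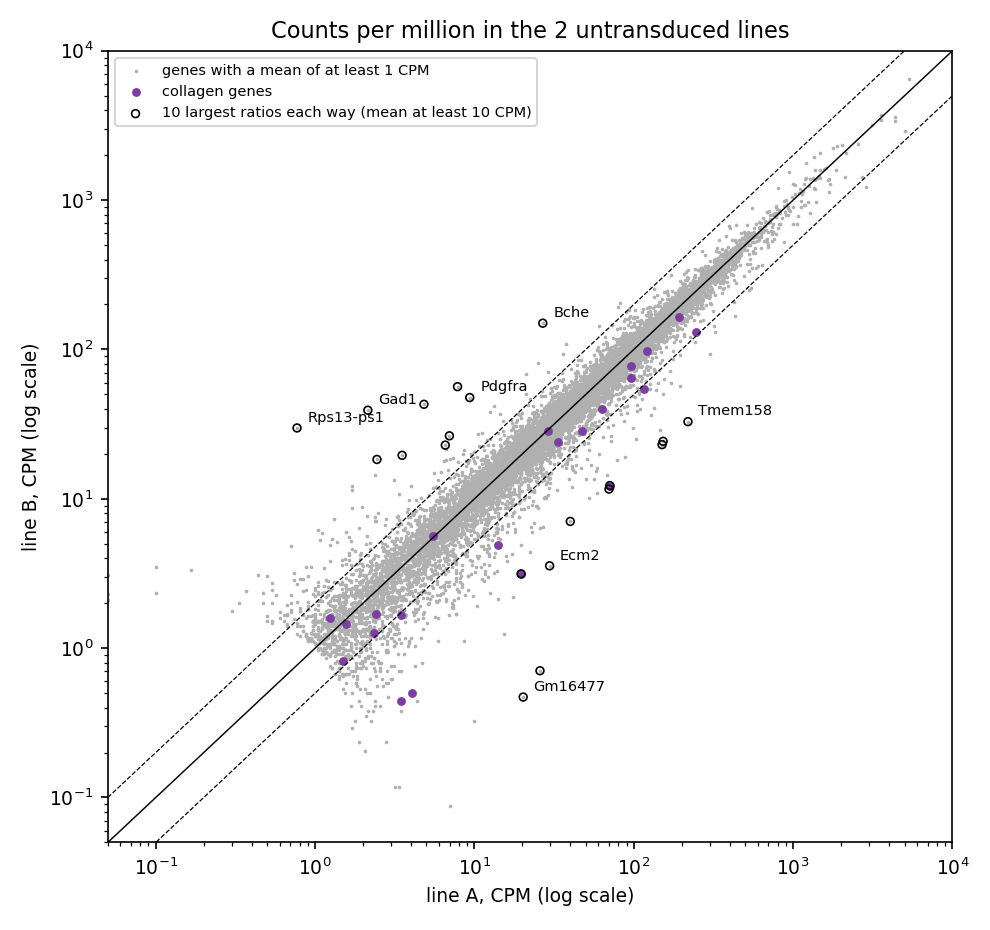
CPM in line B against line A on log axes for genes with a mean of at least 1 CPM, with collagen genes in purple, circles around the 10 widest ratios each way among genes with a mean of at least 10 CPM, a solid line of equality and dashed lines at 2-fold. Most genes lie between the dashed lines, and 7 collagen genes lie at or below the lower one.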

How the data were processed

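The authors deposited 1 table of raw counts per gene, whole numbers in 12 columns, of which the 2 all-read columns of untransduced cells were used. The 10 others were not used, among them 8 columns of reads split by parental genome that were matched to no sample. The submitters' processing notes name mm10, bcl2fastq, TopHat2 2.0.12 and edgeR. The counting tool, its annotation, its use of strand and its treatment of reads with several matches were not given in the sources used here. Column names give the group and a line number but not which numbered sample, so the libraries are named A and B.

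CPM was each count over the library total, and RPKM was CPM per kilobase of union exon in GENCODE M21 (GRCm38, the mm10 build). Of 25965 entries, 22605 matched by symbol and 1953 by a RefSeq synonym at an overlapping position (94.6%), and entries of a gene were summed. The 1407 unmatched entries held 0.758% and 0.790% of counts. Words of 50 bases were compared between annotated transcripts. Python 3.11.15 with pandas 2.3.3 and numpy 2.4.6 did the calculations, checked on simulated data, and edgeR 4.0.16 and DESeq2 1.42.0 in R 4.3.3 gave alternative scalings. No model was fitted and no p-value was computed.

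The genes described and the lists were chosen with earlier results of these data known. In each list the 6 members with the highest mean RPKM could be named, in lists of up to 12 every member, the 30 highest genes by RPKM and 10 by CPM, the 10 widest line ratios each way at a mean of 10 CPM, and defining markers of other cell types at 0. Genes named beyond this, such as Gapdh, Smchd1, Tsix, Cdk6, Ccnd3, Hes1, Id4, Axin2, Neat1, Hspa1a, Sox10 and Stmn2, were chosen after their values were seen. Alternatives were the gene length, the scaling, each line alone, the expression and count thresholds and the CpG threshold. Some genes of the lists are not reported here by name.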

Additional observations from a re-analysis of the deposited data

How the results depend on the processing

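The number of expressed genes, 11409, ran from 11407 to 12746 over the other settings: 11708 with the length of the longest transcript, 11410 with TMM scaling, 11412 without Xist in the totals, 11407 with at least 10 counts in each library and 12746 at 1 CPM in both. The mitochondrial genes, at 0 counts, add nothing to the totals, so dependence on mitochondrial reads could not be checked. Line A alone gave 11705 and line B alone 11605. Without annotated pseudogenes, an alternative chosen after seeing the data, it was 11205. Medians of at least 1 RPKM were found for 22 of 46 lists under each alternative except line B alone, which gave 23 through the oligodendrocyte list (1.04 RPKM against 0.677 for both lines). Among these 22 lists the longest transcript raised the medians of the astrocyte (to 18.7 RPKM), chromatin (15.7), ribosomal protein (36.0) and SOX (10.2) lists by over 1.5-fold, and line B alone lowered that of the matrix list from 6.48 to 3.65 RPKM. Medians under 1 RPKM also moved by over 1.5-fold: the longest transcript raised the mesenchymal one from 0.0246 to 0.0572 RPKM, and line B alone lowered the collagen one from 0.200 to 0.0894 RPKM, among others. The 642 genes 2-fold apart became 645 with TMM, 648 with DESeq2 size factors, 1489 at a mean of 0.1 CPM and 195 at a mean of 10 CPM. The share of expressed genes with a CpG-rich promoter, 79.1%, was 58.1% at a threshold of 0.75, against 11.0% of other genes, and 76.3% with genes called expressed by CPM. No paired analysis was possible because 1 group is described and no result comes from a test. The spread of 2 lines, the unknown handling of repeated sequence and the unknown strand limit every level given here.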

Other observations

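Transcription factor families beyond Sox and Hox were expressed to different extents. Of 42 forkhead genes 14 were expressed, among them Foxk2 (40.3 and 35.5 RPKM), Foxj1, Foxo3 (20.4 and 18.5 RPKM) and Foxm1, a factor of mitotic genes, at 14.7 and 13.6 RPKM, and 14 had 0 counts. Of 339 zinc finger genes with a Zfp symbol 253 were expressed at a median of 3.40 and 3.61 RPKM. Of the 309 at 1 CPM or more 237 were higher in line B, by small amounts with a median log2 ratio of 0.15, where 6971 of all 13040 genes compared were higher in line B at a median of 0.02. Among them 2 were 2-fold higher in line A and 4 in line B, against 3.54% and 1.38% of all genes.

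Of 92 potassium channel genes 24 were expressed. The voltage-gated Kcnc1 had 67.4 and 65.7 RPKM and Kcnd3 39.9 and 38.2 RPKM, and the inward rectifiers Kcnj16 and Kcnj10, known from glia, had 16.6 and 18.03 and 11.4 and 17.7 RPKM. Of the 42 at 1 CPM or more 9 were 2-fold higher in line A and 1 in line B, against 3.54% and 1.38% of all genes. Of 19 sodium and calcium channel genes 5 were expressed, and the T-type calcium channel gene Cacna1h led at 16.5 and 13.6 RPKM.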
